A study of Mus musculus with 8 samples.

Results

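A set of 6 miRNAs that are often used as internal references in miRNA measurements was examined in the livers of mice with diet-induced steatohepatitis: mmu-miR-191, mmu-miR-320, mmu-miR-361, mmu-miR-423-5p, mmu-miR-425 and mmu-miR-484, given below without the species prefix. They were chosen by name, with earlier results of these data known, and each had 1 probe, so that 6 of the 1135 miRNA probes of the array (1096 mouse and 39 viral) are described. The livers came from male C57BL/6N mice that were 8 weeks old at the start and all ate food deficient in methionine and choline (MCD). The MCD + metformin group (4 livers) received 2.4 mg/day of metformin through the drinking water over 15 weeks, and the MCD group (4 livers) was given no drug. Each liver RNA was hybridised to its own array, which gave 8 arrays, and livers of normally fed mice were not used here. The labels number the livers within a group, and p-values rest on the spread between these samples, which limma pools in part over probes.

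A miRNA array or PCR gives relative amounts, so each sample has to be set against something assumed to be constant. A reference miRNA serves this purpose if it is expressed in the tissue and does not move with the treatment or the disease. miRNAs are usually cut from a hairpin by the Drosha and DGCR8 complex and then by Dicer. In mouse embryonic stem cells miR-320 and miR-484 were found to need Dicer but not DGCR8, while miR-191 and miR-425 come from neighbouring hairpins of the same strand.

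Mature sequences are shown because the 6 probes read 6 separate miRNAs, and because closely related miRNAs could share a probe. In the RefSeq table used here (GRCm38.p6, 1738 mature mouse miRNAs) 5 of the 6 names were matched. They are written 5′ to 3′ with the seed, bases 2 to 8, in capitals.
miR-191: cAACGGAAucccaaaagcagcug
miR-425: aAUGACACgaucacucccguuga
miR-361: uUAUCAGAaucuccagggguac
miR-423-5p: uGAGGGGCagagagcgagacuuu
miR-484: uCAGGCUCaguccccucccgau

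No seed was shared among these 5 miRNAs. The seed of miR-425 was also that of miR-489-3p, and the seed of miR-423-5p was also that of miR-6921-5p. The nearest other mature mouse miRNA differed by 6 edits for miR-484, 7 for miR-423-5p and 8 for miR-191, miR-361 and miR-425. The GC content lay between 45.5% for miR-361 and 63.6% for miR-484, against a median of 52.2% over all mature miRNAs.

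In GRCm38.p6 miR-191 lies at chr9:108568325-108568347 and miR-425 at chr9:108568789-108568811, both on the plus strand within the gene Dalrd3, and their hairpins are 384 bases apart. miR-361 lies at chrX:113074867-113074888 on the minus strand within Chm, the gene of a Rab escort protein. miR-423-5p lies at chr11:77078122-77078144 on the minus strand within Nsrp1, which encodes a splicing regulator. miR-484 lies at chr16:14159630-14159651 on the plus strand, and the hairpin gene Mir320 at chr14:70443510-70443591. Whether these positions are exonic or intronic was not looked up.

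Signals are scanner intensities in arbitrary units before background correction. The scanner values held a single channel, for which the labels and the scanner columns name different dyes, so which dye it reads is not certain. Detection meant a signal over the blank spots of the same array (mean + 2 SD), and 848 to 1018 probes were detected in MCD + metformin and 868 to 970 in MCD livers. A stricter limit was the mean + 2 SD of the negative control spots, at 276 to 301 in MCD + metformin and 297 to 315 in MCD livers. The local background around the spots was 135 to 143 on the MCD + metformin arrays and 156 to 162 on the MCD arrays, with no overlap (exact permutation test, two-sided, p = 0.0286, the smallest that 4 against 4 allows). All MCD + metformin arrays carried cell number 2 and all MCD arrays number 1 in the scanner files, so cell and treatment cannot be told apart. All 5 hepatocyte miRNAs of a fixed list (miR-122, miR-122*, miR-192, miR-194 and miR-148a) exceeded the negative controls on every array. Their summed signal was 29150 to 38992 in MCD + metformin and 24506 to 28023 in MCD livers. All 5 were higher with metformin at an unadjusted limma p below 0.05 (6.36% of all tested probes were), with a median log2 fold change of 0.42. Bright probes as a whole also lay higher. Of the 158 probes above the negative controls on all arrays, 28 were higher and 6 lower at that threshold. Positive values were held by 114 of these 158, with a median of 0.13. Listed miRNAs of other cell types differed in direction. Both endothelial miRNAs were higher at that threshold (median 0.31), and all 3 biliary miRNAs were negative without passing it (median -0.43). Of 5 stellate cell miRNAs 4 were negative and 1 positive (miR-145, 0.069). Only miR-21 of these passed (-0.70, unadjusted p = 0.000826, adjusted p = 0.195 by limma). All 5 leukocyte miRNAs were negative, and only miR-223 passed (-0.60, unadjusted p = 0.0163, adjusted p = 0.391 by limma). miR-142-3p (-0.0072) and miR-150 (-0.010) lay near 0. With the arrays scaled to the 6 reference miRNAs, as described below, 2 of the 5 were positive. Only 3 of the 5 exceeded the negative controls on all arrays. Of all tested probes 3.08% were lower at that threshold. The summed signal of 5 leukocyte miRNAs was 1457 to 1822 in MCD + metformin and 1715 to 2298 in MCD livers, and none of 4 tested miRNAs of brain, muscle and pancreas exceeded the negative controls on all arrays. The part of these differences in the results was not tested, and in whole liver fewer cells of a type and less RNA per cell cannot be told apart.

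None of the 6 reference miRNAs differed between MCD + metformin and MCD livers by limma, and no member separated the groups completely. The signals of 4 of them exceeded the negative controls on at least 6 arrays. miR-320 and miR-423-5p never did, and their signals and differences are those of probes under the negative control limit. miR-423-5p exceeded the blank spots on all 8 arrays, and miR-320 on only 6. Fold changes below were taken on background-corrected log2 values after setting every array to a common median, taken over the 451 probes that all 8 arrays detected. Only 158 probes exceeded the negative controls on all 8 arrays, so this median rests largely on dim probes. The correction adds 50 to each value, so fold changes of dim probes are understated.

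**Figure D1:**
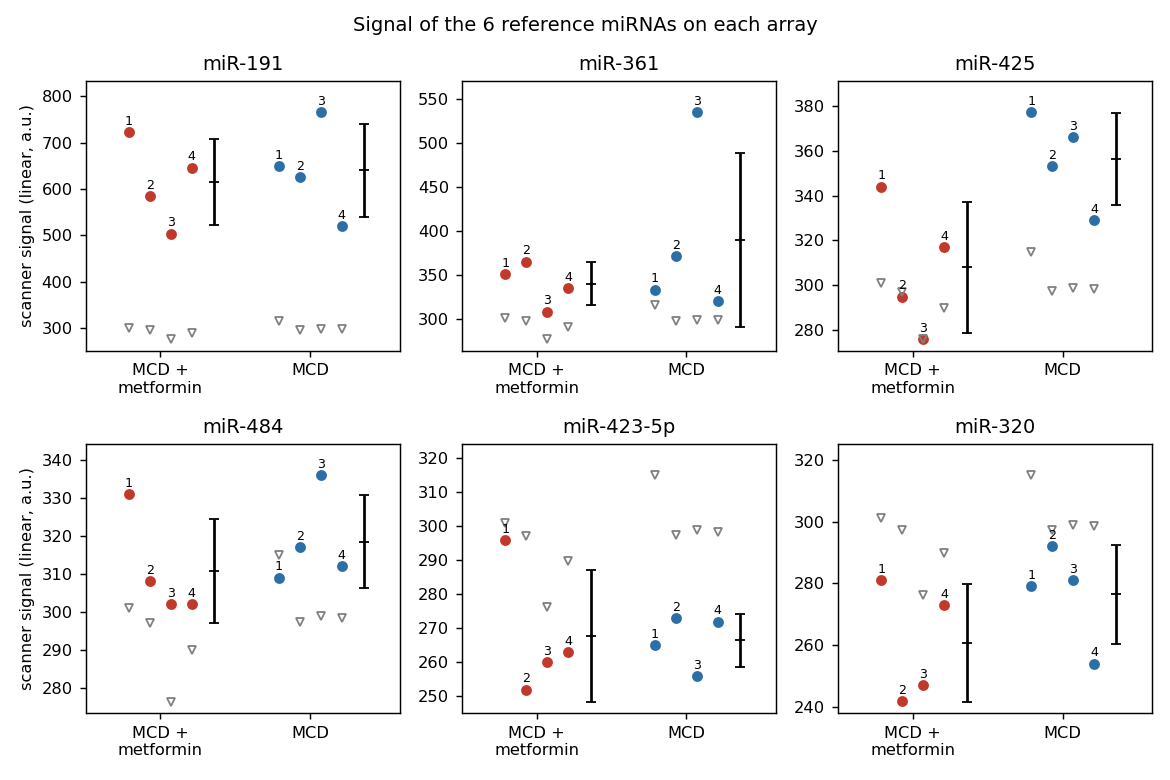
Scanner signal of each reference miRNA in each liver, on a linear axis that does not start at 0, with MCD + metformin in red on the left and MCD in blue on the right. Numbers are replicates, bars are mean ± SD (n = 4) and open triangles are the negative control limit of the array; miR-320 and miR-423-5p lie under the triangles on all 8 arrays.

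miR-191 is transcribed with miR-425 and is widely expressed. Its signal was 722, 585, 504 and 646 in MCD + metformin livers 1 to 4, and 650, 626, 765 and 520 in MCD livers 1 to 4. The groups overlapped throughout, with the highest value in MCD liver 3 and the lowest in MCD + metformin liver 3. The mean was 614 ± 92.4 in MCD + metformin and 640 ± 101 in MCD livers (SD, n = 4 each). After scaling the log2 fold change was 0.0036 (95% interval -0.30 to 0.30, adjusted p = 0.994 by limma), and it was -0.12 to 0.10 when 1 liver was left out.

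miR-425 lay lower in 3 of the 4 MCD + metformin livers than in any MCD liver after scaling. Its signal was 344, 295, 276 and 317 in MCD + metformin livers 1 to 4, and 377, 353, 366 and 329 in MCD livers 1 to 4. Only the signal of MCD + metformin liver 1 exceeded that of the lowest MCD liver. The mean was 308 ± 29.3 in MCD + metformin and 356 ± 20.6 in MCD livers (SD, n = 4 each). The log2 fold change was -0.24 (95% interval -0.49 to 0.01), with an unadjusted p of 0.056 and an adjusted p of 0.538 by limma and an exact permutation p of 0.0571. In the value table that the authors deposited, from which a blank level is subtracted, miR-425 averaged 84.2 ± 20.6 in MCD + metformin and 125 ± 18.6 in MCD livers, a log2 fold change of -0.59 with an unadjusted limma p of 0.0272 and an adjusted p of 0.495. Under 9 of 21 alternatives its unadjusted limma p was below 0.05, with a lowest value of 0.0123, and over these 21 its lowest adjusted p was 0.351. The study listed miR-425 as lower with metformin among the miRNAs it selected on these same arrays, so its direction here is not independent evidence.

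The ratio of the neighbours miR-191 and miR-425 overlapped between the groups. The log2 ratio of miR-191 to miR-425, centred on its mean over the 8 arrays, was 0.047 to 0.19 in MCD + metformin and -0.26 to 0.13 in MCD livers. It was 0.25 higher on average in MCD + metformin livers, and 2 of these 4 livers lay above all MCD livers. This difference was not tested, because the pair was one of 15.

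miR-361, from the X chromosome, changed direction with 1 liver. Its signal was 351, 365, 308 and 335 in MCD + metformin livers 1 to 4, and 333, 371, 535 and 320 in MCD livers 1 to 4. MCD liver 3 stood well above the other 7, which overlapped. The mean was 340 ± 24.5 in MCD + metformin and 390 ± 99.2 in MCD livers (SD, n = 4 each). The log2 fold change was -0.16 (95% interval -0.56 to 0.24, adjusted p = 0.836 by limma), and without MCD liver 3 it was 0.070.

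miR-484, one of the miRNAs that do not need DGCR8, varied least of the 6 across these MCD-fed livers. The study listed miR-484 among the miRNAs higher in MCD than in control livers, which were not used here. Its signal was 331, 308, 302 and 302 in MCD + metformin livers 1 to 4, and 309, 317, 336 and 312 in MCD livers 1 to 4. It exceeded the negative controls on 7 arrays, all but that of MCD liver 1. The mean was 311 ± 13.8 in MCD + metformin and 319 ± 12.1 in MCD livers (SD, n = 4 each). The groups overlapped, with a log2 fold change of 0.041 (95% interval -0.19 to 0.27, adjusted p = 0.968 by limma), and without MCD liver 1 it was -0.0053.

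miR-423-5p, from a hairpin that also gives miR-423-3p, had a signal of 296, 252, 260 and 263 in MCD + metformin livers 1 to 4. In MCD livers 1 to 4 it was 265, 273, 256 and 272. MCD + metformin liver 1 was the highest and the other 7 lay together. The mean was 268 ± 19.4 in MCD + metformin and 267 ± 7.85 in MCD livers (SD, n = 4 each), and the log2 fold change was 0.13 (95% interval -0.13 to 0.39, adjusted p = 0.793 by limma).

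miR-320 had a signal of 281, 242, 247 and 273 in MCD + metformin livers 1 to 4, and of 279, 292, 281 and 254 in MCD livers 1 to 4. It exceeded the blank spots on 6 arrays, and the groups overlapped. The mean was 261 ± 19.2 in MCD + metformin and 277 ± 16.1 in MCD livers (SD, n = 4 each). The log2 fold change was -0.080 (95% interval -0.34 to 0.18, adjusted p = 0.911 by limma).

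By limma 0 of the 6 passed an adjusted p of 0.05 (0% of the 1070 probes tested) and 0 of the 6 an unadjusted p of 0.05, which 101 probes, or 9.44%, passed (6.36% higher and 3.08% lower with metformin). The groups did not overlap for 0 of the 6, against 4.77% of all tested probes. The methods' unpaired test also called no probe after Benjamini-Hochberg adjustment, and 83 before it. Of the 6 log2 fold changes 3 were positive and 3 negative, with a median of -0.038, against a median of 0.029 over all tested probes. The 95% intervals ran from -0.56 to 0.24 for miR-361, the widest of the 6, and from -0.19 to 0.27 for miR-484, the narrowest, and an equal level in both groups was not shown. In the deposited value table the log2 fold changes of miR-191, miR-320, miR-361, miR-423-5p and miR-484 were -0.070, -0.25, -0.29, 0.20 and -0.022.

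**Figure D2:**
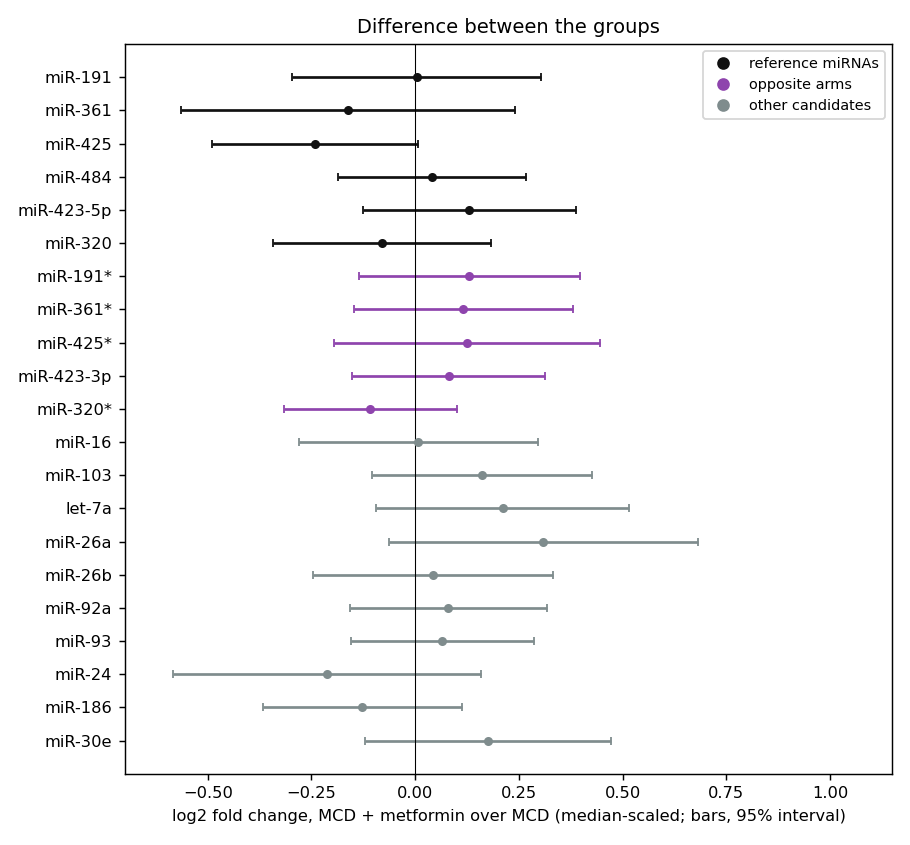
Log2 fold change of MCD + metformin over MCD (x axis, median-scaled) for the 6 reference miRNAs, the 5 opposite arms and 10 other candidate reference miRNAs, with 95% intervals from limma. Every interval includes 0, and that of miR-425 only just (-0.49 to 0.01).

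The opposite arm of the hairpin was on the array for 5 of the 6. The log2 fold change was 0.13 for miR-191*, 0.12 for miR-361*, 0.12 for miR-425* and 0.081 for miR-423-3p, and none was called by limma. The arms exceeded the negative controls on 0 or 1 of the 8 arrays. miR-320* had a signal of 258 to 273 in MCD + metformin livers and of 277 to 284 in MCD livers. These groups did not overlap (exact permutation p = 0.0286), but the difference was small, with a log2 fold change of -0.11 (95% interval -0.32 to 0.10, unadjusted p = 0.289, adjusted p = 0.786 by limma). miR-320* was also among the miRNAs that the study selected on these arrays as lower with metformin, so it is not independent evidence either.

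Another 10 miRNAs that have served as references were set beside them: miR-16, miR-103, let-7a, miR-26a, miR-26b, miR-92a, miR-93, miR-24, miR-186 and miR-30e. Of these, 9 exceeded the negative controls on all 8 arrays, against 2 of the 6. None of the 10 passed an unadjusted p of 0.05 by limma. Their log2 fold changes were positive for 8 and negative for 2, with values of 0.31 for miR-26a, 0.21 for let-7a, 0.0078 for miR-16 and -0.21 for miR-24. Positive values were also held by 114 of the 158 probes above the negative controls on all arrays, and by 625 of all 1070 tested. Between MCD and control livers the study listed miR-24 and miR-93 as higher and miR-30e as lower in MCD.

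The SD of the scaled log2 value over the 8 arrays was used as a measure of stability. All 8 livers had the MCD diet, so stability against a normal diet was not tested. It was 0.093 for miR-484, 0.16 for miR-320, 0.16 for miR-423-5p, 0.19 for miR-425, 0.22 for miR-191 and 0.35 for miR-361. The median over all tested probes was 0.18, and 3 of the 6 lay below it. The SD of miR-484 was at the 4.30 percentile of all tested probes and that of miR-361 at the 96.2 percentile, so that the 6 covered nearly the whole range. Of the 100 probes nearest in level, 5 had a smaller SD than miR-484, 40 than miR-423-5p, 41 than miR-320, 43 than miR-191, 60 than miR-425 and 92 than miR-361. The median SD was 0.24 over the 158 probes above the negative controls on all arrays. miR-320 and miR-423-5p lay under the negative controls on all 8 arrays. Background correction adds a constant to each value, which makes the SD of such dim probes smaller. The order of the 6 depended on the values used. In the deposited value table the SD was lowest for miR-484 (0.16), miR-191 (0.28) and miR-423-5p (0.33). It was 0.42 for miR-425, 0.56 for miR-361 and 0.58 for miR-320, the highest of the 6.

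**Figure D3:**
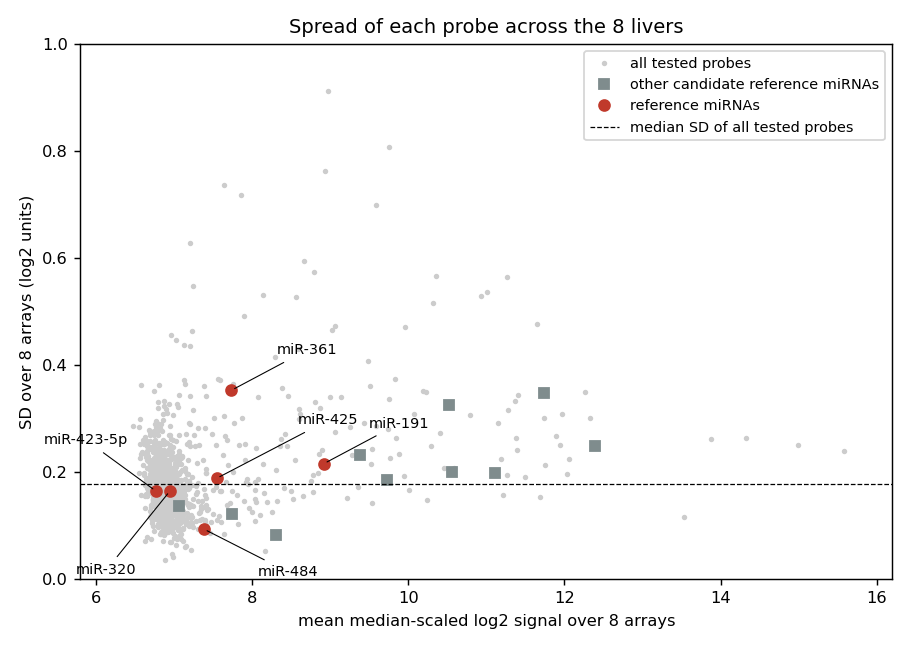
SD of each tested probe over the 8 arrays (y axis, log2 units) against its mean scaled log2 signal (x axis), with the reference miRNAs in red, 10 other candidates as grey squares and the median SD of 0.18 as a dashed line. miR-484 lies near the lower edge, miR-361 near the upper edge, and miR-320 and miR-423-5p within the dense cloud of dim probes.

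Ratios between members do not depend on the scaling, but those with miR-320 or miR-423-5p read a probe below the negative controls on every array, whose differences the added 50 makes smaller. The SD of the log2 ratio over the 8 arrays was lowest for miR-320 to miR-425 (0.13), followed by miR-423-5p to miR-484 (0.15) and miR-191 to miR-320 (0.15). It was 0.18 for the neighbours miR-191 and miR-425, the fifth lowest of the 15 pairs and the lowest without miR-320 or miR-423-5p, and highest for miR-361 to miR-423-5p (0.44). Averaged over its pairs, a member had an SD of 0.20 (miR-320) to 0.34 (miR-361). The same average among the 10 other candidates ran from 0.16 for miR-92a to 0.29 for miR-24.

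For each member the 2 most similar probes over the 8 arrays were named by Pearson's r of the scaled values, among the probes above the negative controls on all arrays. They were miR-23b (0.95) and miR-15b (0.95) for miR-191, miR-34a (0.90) and miR-24 (0.86) for miR-425, and miR-15a (0.89) and miR-146a (0.82) for miR-361. They were miR-23a (0.83) and miR-31 (0.83) for miR-320, miR-451 (0.78) and miR-3072 (0.75) for miR-484, and miR-106b (0.71) and miR-28c (0.59) for miR-423-5p. These values are the highest of 157 or 158, over arrays that share their scaling and local background, and are given as a description only.

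The last comparison asked what happens to other miRNAs when the arrays are scaled to the reference miRNAs. The mean log2 level of the 6, relative to the array median and centred, was 0.12, -0.056, -0.12 and -0.043 in MCD + metformin livers 1 to 4, and -0.052, 0.11, 0.21 and -0.16 in MCD livers 1 to 4. It was highest in MCD liver 3, where miR-361 was high, and lowest in MCD liver 4. The groups overlapped, and the mean of the 6 was lower in MCD + metformin livers, with a log2 fold change of -0.051 (0.0089 without MCD liver 3). Scaling to the 6 therefore raised the log2 fold change of each probe by 0.051, and the number of positive values was 780 of 1070, against 625 with the array median.

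Scaling to the 6 widened the error of most probes. The standard error of limma, which pools variances over probes, was larger for 1007 of the 1070 probes, with a median of 0.17 after scaling to the 6 and 0.12 after scaling to the array median. The SD within groups, which is not pooled, was larger for 859 probes. Its median was 0.224 after scaling to the 6 and 0.172 after scaling to the array median over all tested probes, 0.215 and 0.209 over the 158 probes above the negative controls on all arrays, and 0.164 and 0.215 over the 10 other candidates. By limma 90 probes, or 8.41%, passed an unadjusted p of 0.05, of which 68 (6.36%) were higher and 22 (2.06%) lower with metformin. With the array median they were 68 higher and 33 lower. The calls had 75 probes in common, 83.3% of those after scaling to the 6 and 74.3% of those after scaling to the array median. With other scalings the split also moved, to 43 higher and 50 lower after quantile normalization, 24 and 60 without scaling, and 29 and 32 in the deposited value table.

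After scaling to the 6, 15 probes (1.4%) passed an adjusted p of 0.05 by limma, 8 higher and 7 lower, against 0 with the array median. The pooling of variances by limma differed between the scalings. The prior degrees of freedom, which set how far the variance of each probe is drawn to a common value, were estimated at 771 after scaling to the 6 and 9.57 with the array median, beside 6 residual degrees of freedom. Of the 15, the groups did not overlap for 5 (background 3.36%), and 8 passed the methods' unpaired test before adjustment. After adjustment that test called 0 probes, and before it 55.

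Single references gave different counts. Scaling to miR-425 alone gave 335 higher and 6 lower probes at an unadjusted limma p of 0.05, and scaling to miR-423-5p alone gave 3 higher and 61 lower. These calls had 9 probes in common, 0 of them in opposite directions. That 0 was fixed in advance, because the scalings differ by 0.37 for each probe, less than opposite calls would need. Between them lay miR-320 with 58 higher and 16 lower, miR-484 with 30 and 37, miR-191 with 10 and 18, and miR-361 with 11 and 3. The shift added to the log2 fold change of each probe was 0.24 for miR-425, 0.16 for miR-361, 0.080 for miR-320, -0.0036 for miR-191, -0.041 for miR-484 and -0.13 for miR-423-5p. Scaling to the 10 other candidates gave 10 higher and 30 lower probes, with a shift of -0.071. Leaving 1 of the 6 out of the set gave 64 probes (without miR-425) to 102 probes (without miR-191).

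**Figure D4:**
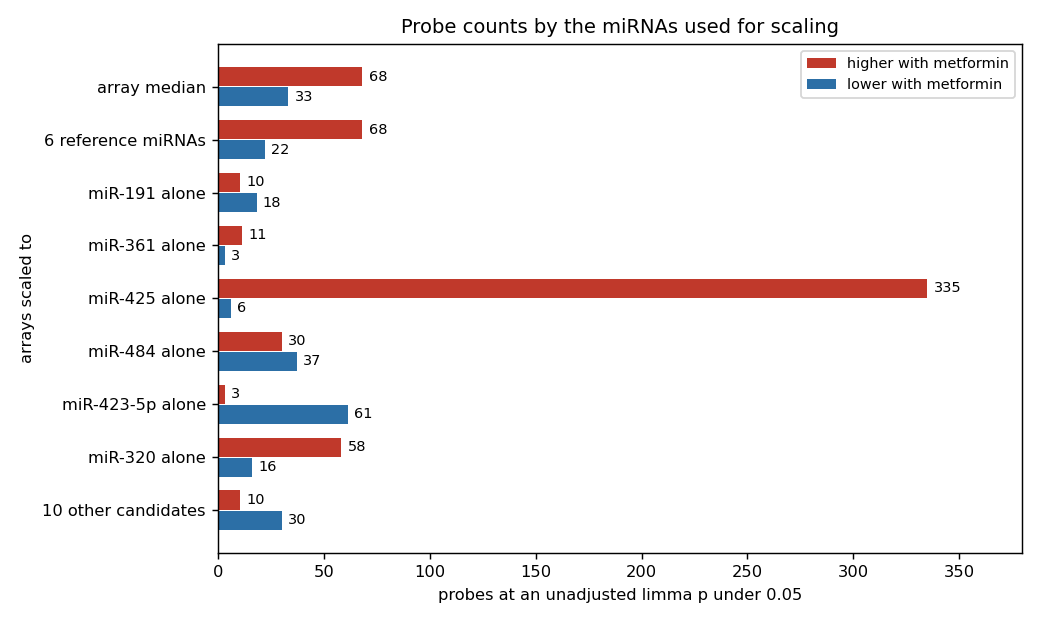
Number of the 1070 tested probes at an unadjusted limma p below 0.05 (x axis, from 0), higher with metformin in red and lower in blue, by the miRNAs to which the arrays were scaled (y axis). The counts ran from 335 higher and 6 lower for miR-425 alone to 3 higher and 61 lower for miR-423-5p alone.

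The choice of reference was followed in 9 miRNAs that the study names, which it selected on these arrays. With the array median, all 9 passed an unadjusted p of 0.05 by limma, and metformin livers were higher for 4 and lower for 5. With the 6 references 7 of the 9 passed, and with a single reference 3 (miR-361) to 8 (miR-484). Since a single reference adds the same shift to each probe, and the shifts were smaller than these 9 changes, no sign could turn. All 9 exceeded the blank spots on at least 7 arrays. The negative controls were exceeded on all 8 arrays by 6 of them, but by miR-376a and miR-127 in only 2 of the 4 MCD + metformin livers (and all 4 MCD livers), and by miR-300 in 0 of 4 MCD + metformin and 2 of 4 MCD livers.

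Among the miRNAs that were higher, miR-122, the most abundant miRNA of hepatocytes, had a log2 fold change of 0.44 with the array median and 0.49 with the 6 references (adjusted p = 0.193 by limma). It ranged from 0.31 to 0.68 over the single references and passed with 5 of them. miR-194, also enriched in hepatocytes, ranged from 0.39 to 0.76 and passed with all 6. miR-705 ranged from 0.25 to 0.62 and passed with 3, and miR-101b from 0.13 to 0.50 and passed with 1.

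Among those that were lower, miR-376a, from the imprinted Dlk1-Dio3 region, was -1.08 with the array median and -1.03 with the 6 references, and passed with all 6 single references (-1.21 to -0.84). Its adjusted limma p was 0.195 with the array median and 1.85e-06 with the 6 references. The second value rests on a variance pooled almost wholly over probes (771 prior and 6 residual degrees of freedom). For the values scaled to the 6 references, the exact permutation test gave p = 0.0286. miR-127, of the same region, ranged from -0.58 to -0.21 and passed with 4, and miR-34a, a target of p53, from -0.59 to -0.21 and passed with 4. miR-342-3p ranged from -0.55 to -0.18 and passed with 4, and miR-300 from -0.42 to -0.048 and passed with 2.

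**Figure D5:**
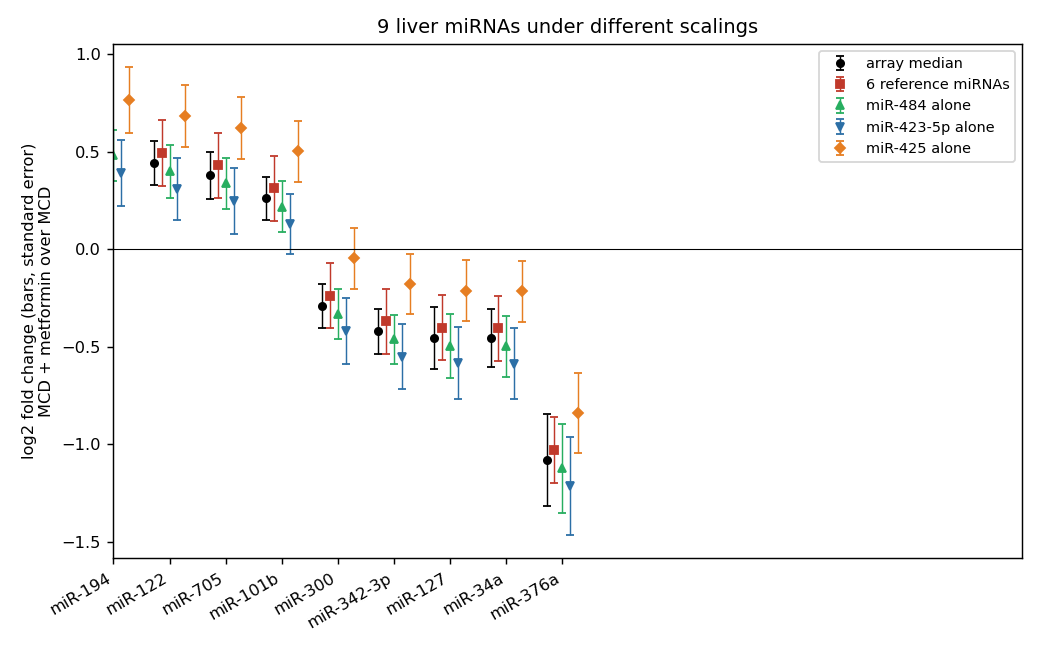
Log2 fold change of MCD + metformin over MCD (y axis) with its standard error for 9 miRNAs that the study names, scaled to the array median, the 6 reference miRNAs, or miR-484, miR-423-5p or miR-425 alone. A scaling moves all 9 by the same shift, so the distance between miR-425 and miR-423-5p is the same for each miRNA. The points of miR-194 for the array median (0.52) and the 6 reference miRNAs (0.57) are cut off at the left edge.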

How the data were processed

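Liver RNA of 4 MCD + metformin and 4 MCD mice was measured on 3D-Gene mouse miRNA arrays. The authors labelled and scanned the arrays, and the deposited scanner values are median intensities of the spots and of the local background around them, linear and not normalized. The deposited value table also holds intensity, and each column was linear in the scanner signal less about the blank mean, with a median of 45 and 57 to 173 probes left empty. It was used as an alternative only.

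Values were computed with R 4.3.3 and limma 3.58.1: normexp (offset 50), log2, shift to a common median of 451 probes that all 8 arrays detected, and lmFit and eBayes over the 1070 probes detected on at least 4 arrays, two-sided and without pairing, adjusted by Benjamini-Hochberg. No spot of a probe was saturated. Reference scaling replaced the median by the mean of the 6 members. Exact permutation tests went through the 70 ways to assign 4 against 4. The number of arrays limits the precision. On simulated arrays (200 of 1070 probes changed) an adjusted limma p of 0.05 recovered 78.4% of changes of 0.5 and 98.4% of changes of 1 (log2), and 4.16% of its calls were false. Simulated probes varied independently and many changed at once, so this checks the functions and is not the power here.

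Named miRNAs were the members, their opposite arms, 10 other candidate references, the 9 miRNAs the study names, the 2 probes most like each member, the 3 probes with the smallest SD above the negative controls, and cell type markers (hepatocyte, biliary, red blood cell, leukocyte, endothelium, stellate, other organs). Members and lists were chosen with earlier results of these data known. Alternatives covered normalization, background correction, filters, the deposited table, the test, the replicate block, each liver left out and the reference set. Groups and replicate numbers came from the labels, and sex, strain and age from the study's methods.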

Additional observations from a re-analysis of the deposited data

Results flagged for a closer look

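Of 22 groups of 4 livers tested among the members and their opposite arms, 3 held a liver far from the others by Dixon's test, in which chance flags about 1 in 20 groups. All were MCD livers. miR-425 was low in MCD liver 4, with a signal of 329 and a scaled log2 value of 7.48, against 7.71 to 7.76 in the other MCD livers, and the gap took up 0.845 of the range of the group. miR-320* was low in MCD liver 1, with a signal of 277 and a scaled log2 value of 7.03, against 7.09 to 7.10 (0.854 of the range). miR-361* was low in MCD liver 3, with a signal of 259 and a scaled log2 value of 6.90, against 7.17 to 7.19 (0.933 of the range).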

How the results depend on the processing

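No member passed an adjusted p of 0.05 by limma under any alternative run. miR-320, miR-423-5p and miR-425 kept their direction under every alternative but other reference sets, and miR-425 ranged from -0.59 to -0.17 (adjusted p 0.351 to 0.724). Its unadjusted p (0.056) fell below 0.05 in 9 of 21: 0.0383 after quantile normalization, 0.0386 without scaling, 0.0351 after plain subtraction, 0.0123 without background correction, 0.0484 for probes detected on all 8 arrays, 0.0272 in the table, 0.0479 with trend and robust variance, and 0.0231 and 0.0212 without MCD + metformin liver 1 or MCD liver 4. With other reference sets, miR-320 (-0.080) was 0.16 scaled to miR-425 alone, 0.081 to miR-361 alone, 0.0075 to the set without miR-423-5p and 0.0093 to the 4 members named below, miR-361 was 0.080 to miR-425 alone, miR-484 was -0.089 to miR-423-5p alone and -0.029 to the 10 candidates, and miR-191 was -0.13, -0.038 and -0.067 to miR-423-5p alone, miR-484 alone and the 10 candidates. miR-191 (0.0036) turned to -0.12 after quantile normalization, -0.0039 with the median of all probes, -0.067 without scaling, -0.12 after plain subtraction, -0.020 without background correction and -0.070 in the deposited table, and was -0.12 to 0.10 with 1 liver left out (negative without MCD + metformin liver 1 or 4 or MCD liver 1 or 4). miR-484 turned to -0.029 without scaling and -0.022 in the table, and was -0.0053 (without MCD liver 1) to 0.085 with 1 liver left out. miR-361 was -0.30 to 0.070 with 1 liver left out (0.070 without MCD liver 3), and the mean of the 6 was -0.13 to 0.0089 (without MCD liver 3). With offset 0, 5 of the 6 had an SD below the median of all probes, and 2 to 4 with 1 liver left out. The 101 unadjusted calls became 56 for probes detected on all 8 arrays, 34 for those above the negative controls on at least 4, and 61 in the table, and were 81 to 100 with 1 liver left out. The 0 adjusted calls became 15 with the 6 references, and were 0 to 9 with 1 liver left out (9 without MCD liver 4). After scaling to the 6, the 90 unadjusted calls became 56 and 43 under the 2 filters, 55 with the methods' unpaired test, 28, 14 and 341 for miR-191, miR-361 and miR-425 alone, and 40 with the 10 candidates. With 1 liver left out they were 54 (without MCD liver 2) to 158 (without MCD liver 4), and 57 without MCD + metformin liver 2. The 15 adjusted calls became 0 with offset 0, both filters, the table or the methods' test, 7 after plain subtraction, and 8 with trend and robust variance. They were 2, 1, 0, 0 and 0 for miR-191, miR-320, miR-361, miR-423-5p and miR-484 alone, 7, 7 and 9 without miR-361, miR-423-5p or miR-484 in the set, and 8 with the 10 candidates. With 1 liver left out they were 3 (without MCD + metformin liver 2) to 19 (without MCD liver 4), 9 without MCD + metformin liver 4, and 7 without MCD liver 2 or 3. Scaling to the 4 members above the negative controls on at least 6 arrays, chosen after seeing the data, gave 7. The cause of these changes was not tested, beyond the smaller number of probes or livers. Livers with the same replicate number were not alike (correlation of their deviations -0.30 to 0.03). Whether they were processed together cannot be told from this. The replicate block gave 87 and 0 calls with the array median and 59 and 7 with the 6 references.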

Other observations

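Among the 158 probes above the negative controls on all 8 arrays, the smallest SDs over the arrays belonged to miR-140* (0.052), miR-93 (0.081) and miR-652* (0.084), of which miR-93 is one of the 10 other candidate references. miR-140* had a signal of 406 to 436 in MCD + metformin and 435 to 453 in MCD livers, miR-93 of 421 to 506 in MCD + metformin and 436 to 474 in MCD livers, and miR-652* of 325 to 349 in MCD + metformin and 341 to 359 in MCD livers. Their log2 fold changes were -0.039, 0.065 and 0.0068. They were picked for a small SD on these arrays, so the values are a description.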
